A study of Mus musculus with 12 samples.

Results

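The nuclear-encoded subunits of the respiratory chain were followed in tumours of a mouse pancreatic cancer line. The genes were protein-coding genes whose symbols start with Nduf, Sdh (a to d), Uqcr, Cox4 to Cox8 or Atp5, with pseudogenes left out. This gave 93 of the 43432 genes in the count table, of which 89 were among the 15449 genes that passed the filter on low counts and were tested. By complex there were 44 members of complex I, 4 of complex II, 8 of complex III, 20 of complex IV and 17 of complex V. The symbol Cyc1, a core subunit of complex III, falls outside the rule and is given with the electron carriers.

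The study compared 6 libraries of WT and 6 of AHRKO tumours, all grown from the line CR705 and labelled as pancreas. AHR, the aryl hydrocarbon receptor, is a ligand-activated transcription factor. The labels' growth texts describe cultured cells given test compounds, whereas the RNA text describes tumours, and because the sample labels name no compound, all 12 libraries were read as tumours given no compound. The sources used here do not give how the knockout was made, how many clones were used or which mice were the hosts, and no label says that replicates came from separate animals, so p-values measure only the spread between these samples.

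The respiratory chain sits in the inner mitochondrial membrane. Complexes I and II pass electrons from NADH and succinate to ubiquinone, complex III passes them on to cytochrome c, and complex IV passes them to oxygen. Complexes I, III and IV pump protons, and complex V, the ATP synthase, uses their return to make ATP. Complexes I, III, IV and V also hold subunits made from mitochondrial DNA, so their assembly joins products of both genomes. Many promoters of the nuclear genes are bound by the factors NRF1, GABP (an ETS factor) and YY1.

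The promoters of 3 members are shown because they belong to genes that were higher in AHRKO and held letters of both NRF1 and ETS factors in the 300-base window around the RefSeq start. Each line gives the 250 bases before the start, 5′ to 3′ on the gene's strand, in build GRCm38.p6. Capitals mark GCATGCGC (NRF1) and CCGGAAG (GABP and other ETS factors) on either strand. Overlapping matches run together in capitals, and for Sdhb and Atp5k the ETS letters lie in the 50 bases after the start, which are not shown. Sdhb, at chr4:140961021-140961270 on the plus strand, makes the iron-sulfur subunit of complex II. Cox6a1, at chr5:115348959-115349208 on the minus strand, makes a small subunit of complex IV. Atp5k, at chr5:108434400-108434649 on the minus strand, makes subunit e of the ATP synthase.
Sdhb: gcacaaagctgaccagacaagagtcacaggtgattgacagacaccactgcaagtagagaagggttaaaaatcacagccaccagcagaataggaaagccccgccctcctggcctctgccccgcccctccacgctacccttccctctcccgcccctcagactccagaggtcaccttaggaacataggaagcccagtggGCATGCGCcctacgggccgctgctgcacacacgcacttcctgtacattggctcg
Cox6a1: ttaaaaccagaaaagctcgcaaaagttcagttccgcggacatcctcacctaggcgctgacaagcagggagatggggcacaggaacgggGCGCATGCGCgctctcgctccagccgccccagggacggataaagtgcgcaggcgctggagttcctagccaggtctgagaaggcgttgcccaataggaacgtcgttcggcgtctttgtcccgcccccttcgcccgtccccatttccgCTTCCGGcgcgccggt
Atp5k: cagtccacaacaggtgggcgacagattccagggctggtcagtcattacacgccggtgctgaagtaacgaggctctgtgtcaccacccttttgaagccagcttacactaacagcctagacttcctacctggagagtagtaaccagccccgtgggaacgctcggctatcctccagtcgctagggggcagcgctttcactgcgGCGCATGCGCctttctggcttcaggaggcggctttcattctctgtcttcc
In these windows the NRF1 letters began 54 bases before the start of Sdhb, 162 and 160 bases before that of Cox6a1, and 50 and 48 bases before that of Atp5k. RefSeq gave a window for 74 members. NRF1 letters stood in 16.2% of them, against 3.79% of the 16312 windows of all genes. ETS letters stood in 23% of the member windows against 12.4% of all windows, and the YY1 letters AAGATGGC in 12.2% against 3.3%. The letters TNGCGTG, the core bound by AHR with its partner, stood in 13.5% of the member windows and 6.23% of all windows. Among the 20 windows of members higher in AHRKO, NRF1 letters stood in 6, ETS letters in 4, YY1 letters in 4 and the AHR core in 3. Among the 52 windows of tested members that were not called, the counts were 6, 13, 5 and 7. These matches are descriptions of letters on either strand, and no binding was measured.

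Library totals ran from 19293174 to 35881469 counts in WT and from 14772343 to 19944273 in AHRKO. Ahr itself was read at 112 ± 8.18 CPM (counts per TMM-scaled total, brought to the same depth in every library; mean ± SD) in WT and 102 ± 30.6 in AHRKO (log2 difference -0.13, edgeR adjusted p = 0.606), and since the altered part of the gene is not given, its RNA level does not check the labels. Ductal markers were read in all libraries, with 3478 to 4936 summed CPM in WT and 697 to 4764 in AHRKO, whereas the acinar list summed to at most 49.9 CPM and the islet list to at most 16.4 CPM in any library. All 14 pan-leukocyte markers were higher in AHRKO, with sums of 340 to 629 CPM in WT and 596 to 3539 in AHRKO. White adipocyte markers were also higher, with 4 of 8 risen, all 8 above 0, and sums of 36.6 to 126 CPM in WT and 69.2 to 770 CPM in AHRKO. A pair of AHRKO libraries stood apart. AHRKO replicate 1 had the highest leukocyte sum, the highest fibroblast sum and the lowest ductal sum, and AHRKO replicate 4 had the highest level of 77 of the 89 tested members and the highest adipocyte sum (770 CPM, next 211 CPM). In bulk RNA, fewer cells of a type and less RNA per cell cannot be told apart.

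Respiratory chain transcripts were on balance higher in AHRKO tumours, with 20 accessory subunits among the 24 genes that rose. The abundant ATP synthase subunits Atp5a1 and Atp5b did not pass the test. In edgeR's quasi-likelihood test with Benjamini-Hochberg adjustment over all genes, 24 of 89 members rose (27%) and 1 fell (1.12%). Over all 15449 genes, 15.9% rose and 13.6% fell, 29.5% in either direction. The median log2 difference was 0.26 over the members and 0.02 over all tested genes, and 75 of the 89 members lay above 0. At an unadjusted p under 0.05, 36 members were higher and 1 was lower, against 22.5% and 19.1% of all genes. With an offset for transcript length, described further on, 9 members rose and 9 fell. The risen members were 12 of 44 in complex I, 1 of 4 in complex II, 3 of 8 in complex III, 3 of 16 tested in complex IV and 5 of 17 in complex V. By role, 20 of 56 accessory subunits and 4 of 20 core subunits rose, whereas the 8 Nduf-named assembly factors and the 4 tested tissue-restricted isoforms had none called. Whether these shares differ between roles or complexes was not tested.

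**Figure D1:**
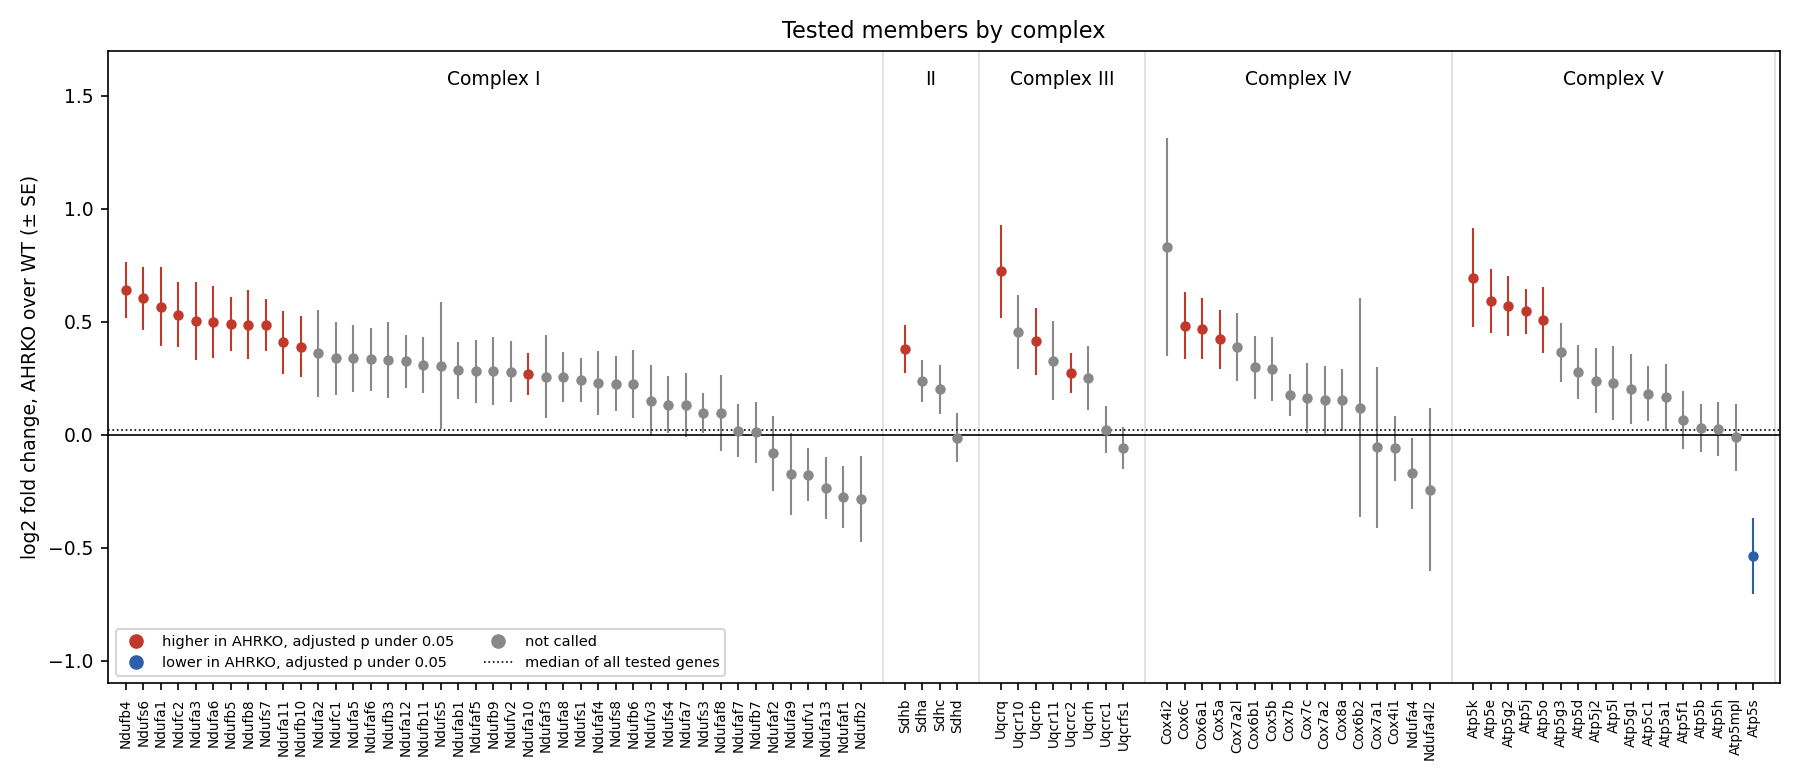
Log2 fold change of AHRKO over WT for 88 of the 89 tested members (points, with bars of ± 1 SE from edgeR; 6 libraries per group), ordered within complexes I to V. Red points rose and the blue point fell at an adjusted p under 0.05, and the dotted line is the median of all tested genes, 0.02. Most points lie above 0, and the 24 red ones are spread over all 5 complexes.

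In 8 members, all 6 AHRKO libraries lay above all 6 WT libraries, which is 9% of the tested members against 6.03% of all genes. These were Atp5j, Ndufb4, Ndufs6, Ndufs7, Atp5g2, Atp5e, Sdhb and Cox6a1. In no tested member did all 6 AHRKO libraries lie below all WT libraries, a pattern seen in 7.35% of all genes.

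The first principal component of the members' log2 CPM took 52.3% of their variance, and AHRKO replicate 4 lay farthest out on it. The summed level of all members ran from 6114 to 7033 CPM in WT and from 6417 to 10384 CPM in AHRKO, a share of 0.623% to 0.725% of the counts in WT and 0.601% to 1.01% in AHRKO. The highest sum was that of AHRKO replicate 4, followed by AHRKO replicate 3 with 8240 CPM, and the lowest AHRKO sum lay inside the WT range. Deviations were taken from each member's mean over the WT libraries, which sets the WT values around 0. The median member was 0.73 higher on the log2 scale in AHRKO replicate 4 and 0.34 higher in replicate 3. In the other 4 AHRKO libraries this median deviation was 0.03 to 0.11, and in WT it was -0.09 to 0.11. Without AHRKO replicate 4, 15 members rose (16.9%, against 13.6% of all genes), 2 fell (against 12% of all genes), and the median member difference was 0.17. The 15 were all among the original 24. The spread of the members was wider in AHRKO, with a median SD of 0.32 on the log2 scale against 0.13 in WT. Over all tested genes it was wider too, with 0.35 in AHRKO against 0.20 in WT.

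**Figure D2:**
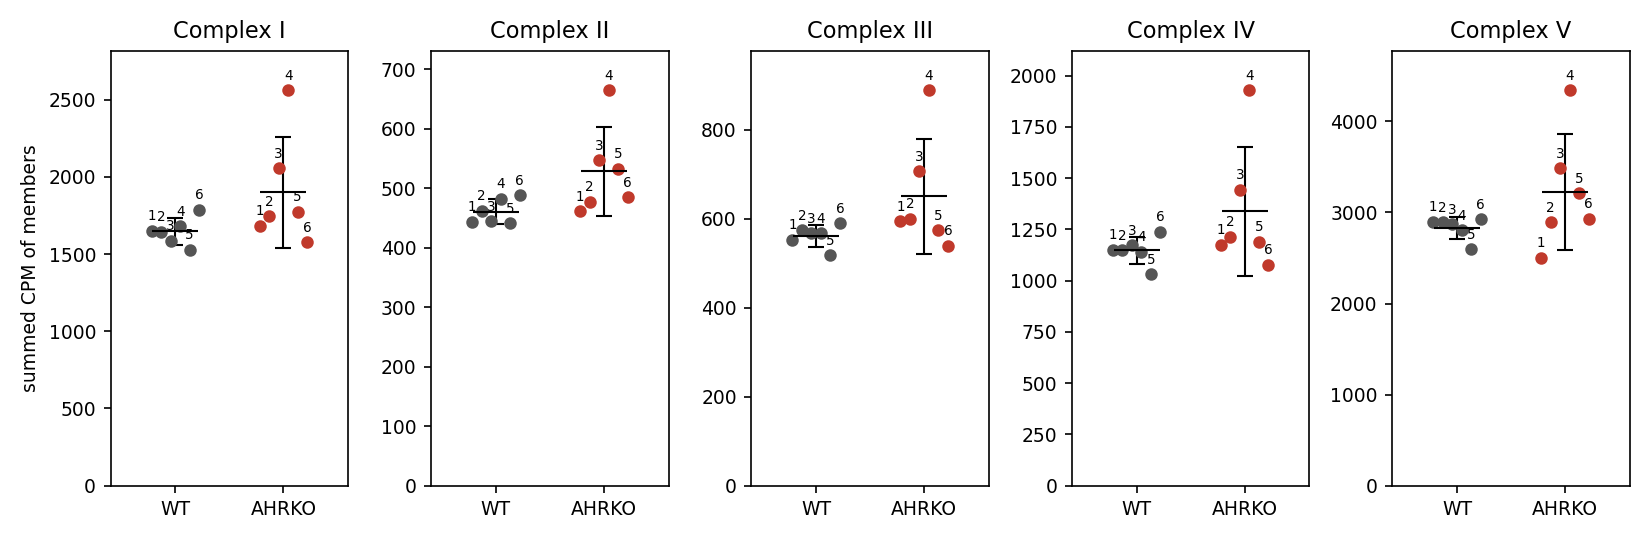
Summed CPM of the members of each complex in every library (points, numbered by replicate), with the mean and SD of each group of 6 as horizontal and vertical lines; each panel has its own scale from 0. In all 5 complexes AHRKO replicate 4 is highest and replicate 3 second, while other AHRKO libraries overlap the WT range.

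Complex I oxidises NADH through an arm that carries flavin and iron-sulfur clusters. Of its 7 nuclear core subunits 1 rose. Ndufs7, which carries the iron-sulfur cluster next to the ubiquinone site, was read at 38.1, 43.1 and 48.4 CPM (lowest, median, highest) in WT and at 50.3, 58.9 and 80 CPM in AHRKO. The groups did not overlap, and the log2 difference was 0.49 ± 0.11 (SE; edgeR adjusted p = 0.00812). Ndufv1, the flavin-bearing subunit that takes electrons from NADH, stood at 104 CPM (median) in WT and 94.6 CPM in AHRKO, a log2 difference of -0.18 ± 0.12 (edgeR adjusted p = 0.276). Ndufs1, Ndufs3, Ndufs8 and Ndufv2, which are also core subunits, had log2 differences from 0.10 to 0.28 and were not called.

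Of 29 accessory subunits of complex I, which surround the core and stabilise it, 11 rose and the median log2 difference was 0.33. Ndufb4, in the membrane arm, was read at 17.3, 20.5 and 23.8 CPM (lowest, median, highest) in WT and at 26.3, 30.7 and 43.2 CPM in AHRKO, with no overlap. Its level was 1.56-fold higher in AHRKO, a log2 difference of 0.64 ± 0.12 (edgeR adjusted p = 0.00297). Ndufs6, a zinc-binding subunit of the matrix arm, was read at 16.9, 18.5 and 21.4 CPM in WT and at 22.4, 28.1 and 40.7 CPM in AHRKO. Its groups did not overlap either, and the log2 difference was 0.61 ± 0.14 (edgeR adjusted p = 0.00746). Ndufb5 stood at 17.7, 22.8 and 25.6 CPM in WT and at 24.6, 30.9 and 39.7 CPM in AHRKO. Its lowest AHRKO library lay inside the WT range, and the log2 difference was 0.49 ± 0.12 (edgeR adjusted p = 0.01). Ndufc2 gave 20.8, 24.2 and 27.6 CPM in WT and 27.2, 32.9 and 51.7 CPM in AHRKO, with 5 of 6 AHRKO libraries above all of WT and a log2 difference of 0.53 ± 0.15 (edgeR adjusted p = 0.0166).

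The other 7 risen accessory subunits, Ndufa1, Ndufa3, Ndufa6, Ndufa10, Ndufa11, Ndufb8 and Ndufb10, had log2 differences from 0.27 to 0.57 and edgeR adjusted p from 0.0277 to 0.0474. In each of them at least 1 AHRKO library lay inside the WT range. Without AHRKO replicate 4 all 7 lost their call, with log2 differences from 0.22 to 0.46 and edgeR adjusted p from 0.0517 to 0.0944. Among the 18 accessory subunits not called, Ndufa13 (log2 difference -0.23), Ndufb2 (-0.28) and Ndufa9 (-0.17) had values below 0, and Ndufa12 came closest to the threshold (0.33, edgeR adjusted p = 0.0514). The 8 assembly factors Ndufaf1 to Ndufaf8, which build the complex without staying in it, ranged from -0.28 (Ndufaf1) to 0.33 (Ndufaf6) with none called.

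Complex II, which is also the succinate dehydrogenase of the tricarboxylic acid cycle, has 4 subunits, all nuclear. Sdhb was read at 63.2, 72.8 and 77.4 CPM (lowest, median, highest) in WT and at 79.4, 88.5 and 124 CPM in AHRKO. Its groups did not overlap, and it rose by 0.38 ± 0.11 on the log2 scale (edgeR adjusted p = 0.0196). Sdha, the flavoprotein that oxidises succinate, had 5 of 6 AHRKO libraries above all of WT but was not called (log2 difference 0.24 ± 0.09, edgeR adjusted p = 0.0655). Of the membrane anchors, Sdhc had a log2 difference of 0.20 and Sdhd of -0.01, and neither was called. Sdhd had the highest level per length of the 4 genes, at 91.3 CPM per kilobase of transcript in WT and 90.5 in AHRKO (mean levels).

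In complex III the nuclear core subunit within the rule, the Rieske iron-sulfur protein Uqcrfs1, had a log2 difference of -0.06 ± 0.09 (edgeR adjusted p = 0.677), while 3 of 7 other subunits rose. Uqcrq, a small subunit beside cytochrome b, was read at 43.8, 48.9 and 53.8 CPM (lowest, median, highest) in WT and at 48, 77.5 and 129 CPM in AHRKO. It had the largest risen log2 difference of all members, 0.72 ± 0.21 (edgeR adjusted p = 0.02), with 5 of 6 AHRKO libraries above all of WT. Uqcrc2, a large matrix-facing subunit without a redox centre, and Uqcrb, a small subunit that contacts the ubiquinone site, rose by 0.27 and 0.41, with edgeR adjusted p of 0.0378 and 0.0497. Both lost the call without AHRKO replicate 4, with edgeR adjusted p of 0.0694 and 0.0887. Uqcrc1, the partner of Uqcrc2, had a log2 difference of 0.02, and the small subunits Uqcr10, Uqcr11 and Uqcrh had 0.46, 0.33 and 0.25 and were not called. Uqcrh had the highest level per length, at 114 CPM per kilobase in WT and 136 in AHRKO.

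In complex IV the catalytic subunits are mitochondrially encoded, and 3 of 12 broadly expressed nuclear subunits rose. Cox6a1 was read at 137, 155 and 171 CPM (lowest, median, highest) in WT and at 171, 191 and 310 CPM in AHRKO. The lowest AHRKO library lay just above the highest WT library, and the log2 difference was 0.47 ± 0.14 (edgeR adjusted p = 0.0208). Without WT replicate 5 it was 0.44 and just missed the threshold. Cox6c and Cox5a, both small structural subunits, rose by 0.48 and 0.42, with edgeR adjusted p of 0.0274 and 0.0288 and 5 of 6 AHRKO libraries above all of WT in each. Cox4i1, a subunit through which ATP regulates the enzyme, had the highest level per length of the complex in WT, at 276 CPM per kilobase against 266 for Cox6a1. In AHRKO it stood at 265 CPM per kilobase, below Cox6a1 (369) and Cox8a (295). Cox4i1 had a log2 difference of -0.06 ± 0.14 (edgeR adjusted p = 0.785). Ndufa4, named for complex I but placed in complex IV, had -0.17 ± 0.16 (edgeR adjusted p = 0.437). Cox7a2l, which joins complexes III and IV into supercomplexes, had 5 of 6 AHRKO libraries above all of WT and was not called (0.39 ± 0.15, edgeR adjusted p = 0.0685).

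Of the 8 tissue-restricted isoforms of complex IV, Ndufa4l2 was read in every library at 10.2 to 44 CPM, and the other 7 stayed at 5.87 CPM or below. The 4 that were tested did not pass. Cox8c and Cox7b2, isoforms known from testis, had 0 counts in all 12 libraries. Cox8b, a heart and skeletal muscle isoform, had 22 counts in all, 14 of them in AHRKO replicate 2 and 6 in AHRKO replicate 4. Cox6a2, also a heart and skeletal muscle isoform, had 112 counts in all, with 41 in AHRKO replicate 2 and 29 in AHRKO replicate 1. Every AHRKO library (0.322 to 1.98 CPM of Cox6a2) lay above every WT library (0 to 0.19 CPM), at counts too low for the test. AHRKO replicate 2 also had 563 CPM of summed skeletal muscle markers, against 18.3 to 56.5 CPM in the other 11 libraries. The lowest of these sums was that of AHRKO replicate 1, which had the second highest level of Cox6a2 (1.72 CPM). The heart muscle list summed to 29.8 to 55.2 CPM in WT and 46.6 to 179 CPM in AHRKO. Of its 2 tested genes Tnnt2, which held most of the sum, rose by 1.34 (edgeR adjusted p = 0.00526), and the 6 untested ones, among them Myh6 and Myl2, were too low to test. The part of muscle RNA in the isoform values was not tested. Cox4i2, an oxygen-responsive isoform known from lung and pericytes, ran from 0.357% to 1.59% of the Cox4i1 level in WT and from 0.557% to 3.84% in AHRKO. The highest ratio was in AHRKO replicate 1, which also had the highest pericyte and smooth muscle sum (2604 CPM, against 534 to 1127 in the others). The log2 difference of Cox4i2 was 0.83 ± 0.48 (edgeR adjusted p = 0.213). Ndufa4l2, a hypoxia-induced relative of Ndufa4, ran from 20.7% to 68.3% of the Ndufa4 level in WT and from 15% to 83.5% in AHRKO, and was not called (-0.24 ± 0.36, edgeR adjusted p = 0.642). Cox6b2 and Cox7a1 stayed at or below 2.67% of Cox6b1 and Cox7a2 in every library and were not called (0.12 and -0.06).

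Complex V had 5 risen members and 1 that fell. The alpha and beta subunits of its catalytic head were the members with the highest levels per length. Atp5b, the catalytic beta subunit, stood at 372 CPM per kilobase in WT and 380 in AHRKO, and Atp5a1, the alpha subunit, at 352 and 395. Neither was called, with log2 differences of 0.03 ± 0.11 (edgeR adjusted p = 0.853) and 0.17 ± 0.15 (edgeR adjusted p = 0.42). Of 8 core subunits 2 rose. Atp5e, the epsilon subunit of the central stalk, was read at 54.1, 58.4 and 65.4 CPM (lowest, median, highest) in WT and at 71.5, 81.7 and 131 CPM in AHRKO, and rose by 0.59 ± 0.14 (edgeR adjusted p = 0.00899). Atp5g2 was read at 98, 113 and 117 CPM in WT and at 128, 158 and 234 CPM in AHRKO, and rose by 0.57 ± 0.13 (edgeR adjusted p = 0.00837). In both genes the groups did not overlap.

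Atp5g1, Atp5g2 and Atp5g3 encode the same mature c-ring protein behind different import signals. Atp5g2 made 30.0% to 34.8% of their summed level in WT and 34.1% to 38.6% in AHRKO, so the ranges overlapped slightly. Atp5g3 made 39.6% to 41.9% in WT and 37.3% to 43.4% in AHRKO, and Atp5g1 made 23.3% to 29.8% and 19.9% to 27.4%. Neither Atp5g1 nor Atp5g3 was called (log2 differences 0.20 and 0.37, edgeR adjusted p = 0.344 and 0.0514).

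Of 8 other ATP synthase subunits 3 rose. Atp5j, coupling factor 6 of the outer stalk, was read at 47.1, 51.3 and 55.2 CPM (lowest, median, highest) in WT and at 64.4, 72.4 and 98.8 CPM in AHRKO. It had the smallest adjusted p of all members, with a log2 difference of 0.55 ± 0.10 (edgeR adjusted p = 0.00231) and no overlap between groups. Atp5o, which caps the outer stalk and is known as the oligomycin sensitivity protein, stood at 52.7, 61.2 and 70.1 CPM in WT and 58.9, 84.8 and 123 CPM in AHRKO. It rose by 0.51 ± 0.14 (edgeR adjusted p = 0.0202), with 5 of 6 AHRKO libraries above all of WT. Atp5k, which helps hold the synthase in dimers, rose by 0.70 ± 0.22 (edgeR adjusted p = 0.0318), from a median of 11.8 CPM in WT to 16.9 CPM in AHRKO. AHRKO replicate 4 held 35 CPM of Atp5k, and without it the difference was 0.45 (edgeR adjusted p = 0.0351). Atp5s, known as coupling factor B and not a subunit of the purified enzyme, was the member that fell. It was read at 4.29, 5.51 and 6.86 CPM in WT and at 3.03, 3.93 and 4.74 CPM in AHRKO, with overlap, and fell by 0.54 ± 0.17 on the log2 scale (edgeR adjusted p = 0.0295). Leaving out any 1 of 5 libraries (WT 4, WT 5, WT 6, AHRKO 2, AHRKO 3) ended that call, with log2 differences from -0.55 to -0.48.

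The calls differed in how much they rested on single libraries. Ndufb4, Ndufs6, Ndufs7, Atp5j, Atp5g2 and Atp5e kept theirs under each of 21 alternative analyses. By contrast, Ndufa1, Ndufa3, Ndufa6, Ndufa10, Ndufa11, Ndufb8, Ndufb10, Uqcrc2, Uqcrb, Cox6c, Cox5a and Atp5k each lost theirs without WT replicate 4 and also without WT replicate 5. The number of risen members was 14 without WT replicate 1, 13 without WT replicate 4 and 11 without WT replicate 5, which is 15.7%, 14.6% and 12.4% of tested members against 12.7%, 11.7% and 11.7% of all genes. Without AHRKO replicate 1, the library rich in leukocyte markers, 29 members rose (32.6%, against 19.1% of all genes). The part of leukocyte or adipocyte RNA in the member differences was not tested.

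Member transcripts are short, and the size of the AHRKO difference moved with transcript length across the whole table. The median length of the principal transcript was 875 bases over the tested members and 3019 bases over the other tested protein-coding genes. It was 707 bases in the 24 risen members and 1003 in the 64 that were not called. Other protein-coding genes under 600 bases had a median log2 difference of 0.34, and the members of that length 0.41. From 600 to under 1000 bases the medians were 0.25 for other genes and 0.31 for members, and from 1000 to under 2000 bases 0.15 and 0.16. From 2000 to under 4000 bases they were 0.05 and 0.24, with 7 members, and at 4000 bases or more -0.10 and -0.04, with 2 members. From the shortest class to the longest, 9 of 19, 10 of 31, 4 of 30, 1 of 7 and 0 of 2 members rose. Of the other genes in these classes 23.8%, 25.1%, 23.2%, 17.8% and 10% rose. By library, deviations of the other genes were taken from their mean over the WT libraries, which sets the WT values around 0. In the shortest class they were 0.06 to 0.68 in AHRKO and -0.12 to 0.07 in WT (medians on the log2 scale). In the longest class they were -0.32 to -0.04 in AHRKO and -0.04 to 0.05 in WT. The value fell from class to class in AHRKO replicates 3, 4 and 6, and in all 6 AHRKO libraries the shortest class lay above the longest. Replicate 4 had the widest span, with 0.68, 0.56, 0.34, 0.04 and -0.32 from the shortest class to the longest, and replicate 3 followed with 0.45, 0.33, 0.19, 0.02 and -0.16.

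**Figure D3:**
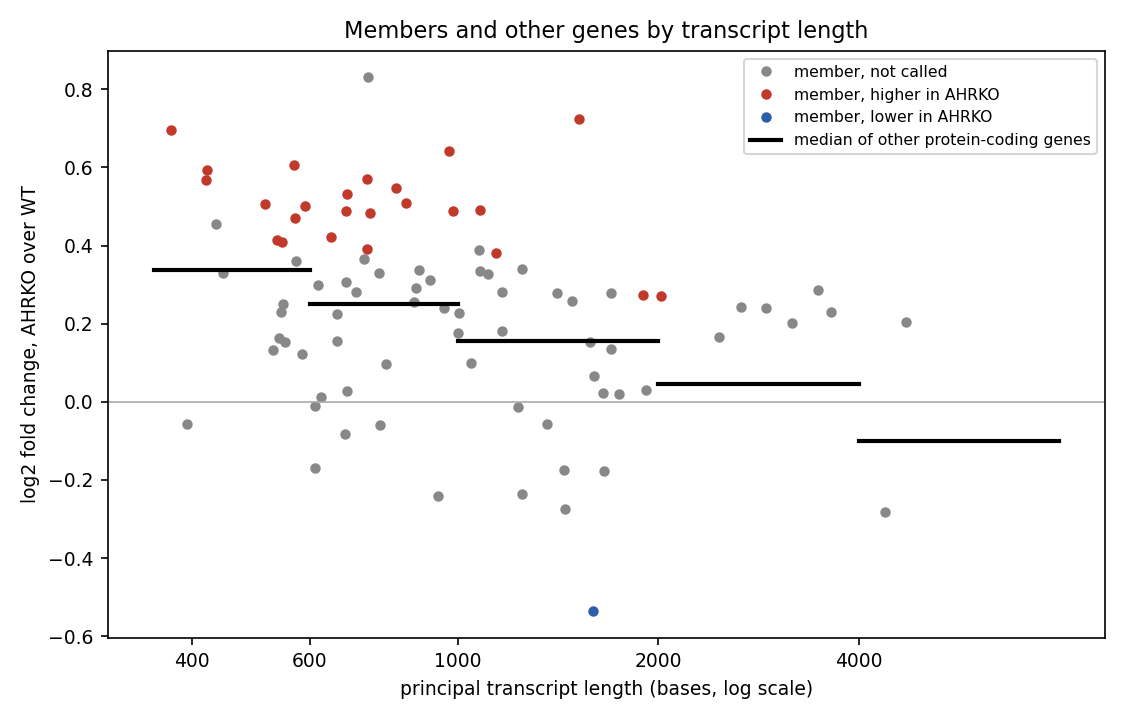
Log2 fold change of AHRKO over WT for 88 of the 89 tested members against the length of its principal transcript (log scale), with black bars for the median of the other tested protein-coding genes in each length class. The bars fall from 0.34 to -0.10 with length, and most members lie within the classes below 2000 bases.

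With an offset for transcript length in each library, an analysis chosen after seeing the data, the balance of the members changed. Then 9 members rose (10.1%, against 15.5% of all genes) and 9 fell (10.1%, against 14.3%), and the median log2 difference was 0.07. The 9 that rose were Atp5j, Ndufb4, Ndufs6, Ndufs7, Atp5e, Atp5g2, Uqcrq, Ndufc2 and Sdhb, all of them called without the offset too. The 9 that fell were Atp5h, Ndufa13, Atp5s, Cox4i1, Ndufa4, Atp5mpl, Uqcrfs1, Ndufaf1 and Ndufv1, of which Atp5s was called without the offset. Their offset log2 differences ran from -0.65 (Atp5s) to -0.21 (Uqcrfs1). The share of risen members thus lay above that of all genes without the offset and below it with the offset. No RNA integrity values were used here, and the part of RNA quality was not tested.

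Genes of some chromosomes were shifted as a whole, and the values of the members stand here beside those of their chromosomes. On chromosome 16 the median log2 difference of other tested genes was 0.32, and 37.5% of them rose. Its 3 members, Atp5j, Atp5o and Ndufb4, all rose. On chromosome 15 that median was 0.22 with 29% risen, and 3 of 4 members rose (Atp5g2, Cox6c and Ndufa6). On chromosome 8 it was -0.31 with 40.1% fallen, and Cox4i1, Ndufa13 and Ndufb7 were not called, with -0.06, -0.23 and 0.01. On chromosome 12 it was -0.24 with 33% fallen, and Atp5s fell while Atp5mpl had -0.01. Against the median of their own chromosome, 75 of 89 tested members lay higher, and the median excess was 0.23. All 24 risen members did so, but they were selected for a positive difference in the same fit, which made this outcome likely. Which part of a member's difference is shared with its chromosome was not tested.

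**Figure D4:**
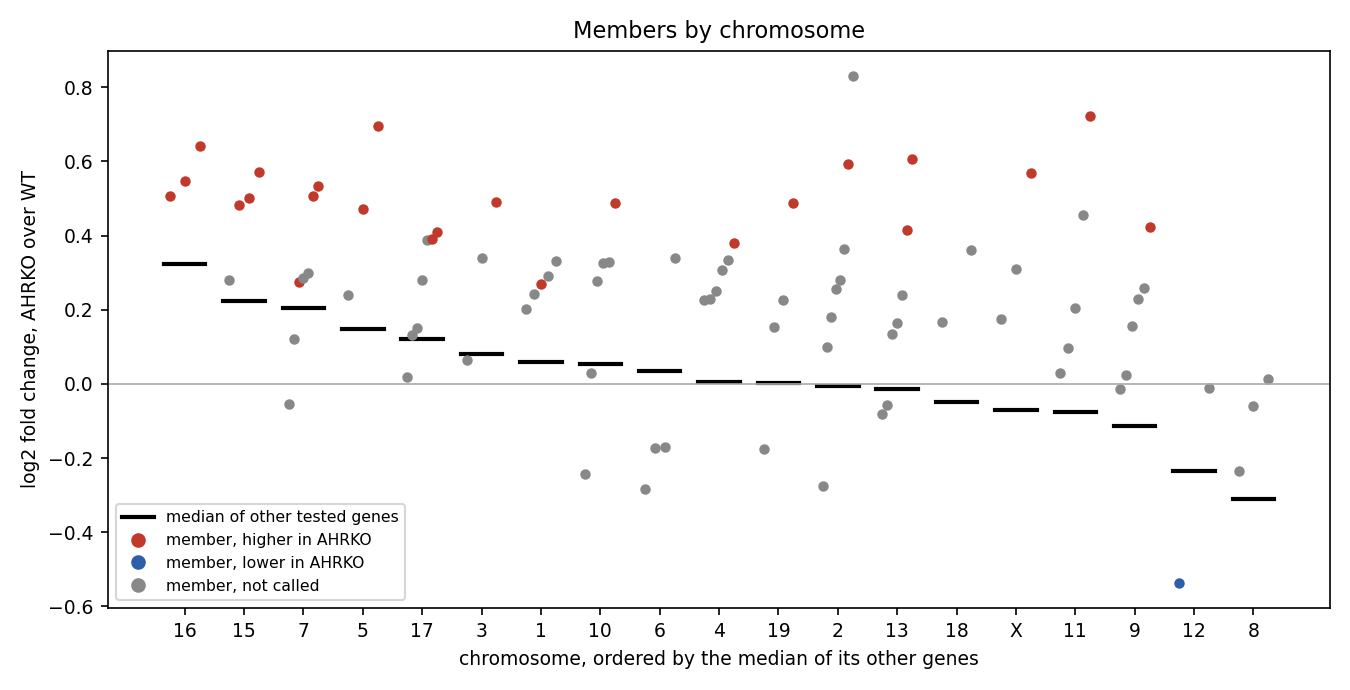
Log2 fold change of AHRKO over WT for 88 of the 89 tested members (points) by chromosome, with black bars for the median of the other tested genes there; chromosomes are ordered by that median, from 0.32 on chromosome 16 to -0.31 on chromosome 8. The red points (rose) lie above their bars, as their selection for a positive difference made likely. The 3 members of chromosome 16 are all red, and 37.5% of the other tested genes there rose.

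Some members share exon sequence with a gene on the opposite strand, and the sources used here do not say whether counting used strand, so reads from the shared stretch cannot be assigned with certainty. Atp5j shares 397 bases with Gabpa, which also rose (0.33, edgeR adjusted p = 0.024). Ndufb5 shares 616 bases with Mrpl47 (rose by 0.56, edgeR adjusted p = 0.00452), and Ndufs6 shares 30 bases with Mrpl36 (rose by 0.49, edgeR adjusted p = 0.0128). Cox6c shares 250 bases with Vps13b, which was not called (-0.10, edgeR adjusted p = 0.606). Pseudogenes named after members took few reads, with 141 counts over 11 pseudogenes, or 0.0082% of the 1719797 counts of the members.

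Genes that work around the complexes were followed in lists of their own, and over all tested genes 15.9% rose and 13.6% fell. Of 13 tested complex I assembly genes outside the Nduf names, 5 rose: Oxa1l (0.37), which inserts proteins into the inner membrane, Dmac1 (0.41), Tmem186 (0.38), Timmdc1 (0.34) and Tmem126a (0.36). For complex III assembly 1 of 6 rose, Uqcc2 (0.58 ± 0.18, edgeR adjusted p = 0.0264), which helps make cytochrome b. For complex IV assembly 2 of 24 rose: Cox18 (0.62 ± 0.10, edgeR adjusted p = 0.00112), which inserts part of a mitochondrially encoded subunit, and Cox14 (0.57 ± 0.14, edgeR adjusted p = 0.00856). In the lists of complex II assembly (3 tested), ATP synthase assembly and its inhibitor (6) and supercomplexes and cristae (12, among them Cox7a2l) no gene was called in edgeR's test, and at an unadjusted p under 0.05 there were 1 lower, 0, and 3 higher. Over all genes, 22.5% were higher and 19.1% lower at that threshold.

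Among 20 electron carriers and ubiquinone synthesis genes 6 rose and 2 fell (30% and 10%, against 15.9% and 13.6% of all genes). Cycs, cytochrome c itself, rose from 43 to 73.1 CPM (means; log2 difference 0.76 ± 0.15, edgeR adjusted p = 0.00358), and all 6 AHRKO libraries lay above all of WT. Cyc1, the heme subunit of complex III that reduces it, rose from 104 to 148 CPM (0.50 ± 0.13, edgeR adjusted p = 0.0123). Coq2, an early enzyme of ubiquinone synthesis, rose by 0.42 (edgeR adjusted p = 0.00893), as did Coq5, Pdss1 and Etfb. Coq9 and Dhodh, both on chromosome 8, fell by 0.41 and 0.38, with edgeR adjusted p of 0.00544 and 0.016.

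Of 25 genes of the tricarboxylic acid cycle and pyruvate entry, 6 rose and 3 fell (24% and 12%, against 15.9% and 13.6% of all genes). Their median log2 difference was 0.02. Cs, citrate synthase, rose by 0.35 ± 0.07 (edgeR adjusted p = 0.00482). Pdk4, a kinase that shuts pyruvate dehydrogenase, fell from 8.51 to 2.86 CPM (-1.56 ± 0.24, edgeR adjusted p = 0.000948). Dld, a subunit of that enzyme on chromosome 12, fell by 0.25 (edgeR adjusted p = 0.00986). The 12 tested regulators of mitochondrial biogenesis had 2 rises and 1 fall: Gabpa rose as given above, Ppargc1b, a coactivator, rose by 0.67 (edgeR adjusted p = 0.0366), and Yy1, on chromosome 12, fell by 0.33 (edgeR adjusted p = 0.00693). The 13 mitochondrially encoded subunits had 0 counts in every library, so no value for the other genome's part of the chain could be read. Of the state lists, 3 of 8 proliferation genes rose (Pcna, Ccna2 and Cdk1), and of 12 hypoxia genes none was called in edgeR's test, with 0 at an unadjusted p under 0.05.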

How the data were processed

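Poly-A selected RNA of 12 tumour samples was sequenced, and the authors deposited raw read counts per gene. Per the submitters' processing notes, reads went through HISAT2, SAMtools, HTSeq and DESeq2 on mm10. The sources used here do not give the annotation, strand setting or counting options. Symbols, positions and principal transcript lengths came from GENCODE release M21, matched by identifier for 42548 of 43432 genes. The files' build mm10 and GRCm38.p6 share coordinates.

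Genes were filtered by filterByExpr, libraries scaled by TMM, and the 2 groups of 6 tested against each other in edgeR (quasi-likelihood, two-sided), with p-values adjusted by Benjamini-Hochberg over 15449 genes at a threshold of 0.05. CPM used the TMM-scaled totals of the tested genes, and log2 CPM for deviations a prior count of 2. Tools were edgeR 4.0.16, DESeq2 1.42.0 and limma 3.58.1 under R 4.3.3, and the code was tested on simulated data. No 2 libraries of a group agreed within sampling noise (lowest chi-squared per degree of freedom 13.6). Read depth covers counting error only.

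Members and lists were chosen with earlier results of these data known, so lists are described by counts without list tests. Named were all called members, with the 12 rises and 12 falls of smallest p given in full (1 fell), the member of highest CPM per kilobase in each complex, the tissue-restricted isoforms, and up to 3 genes of smallest p per pathway list. The values of 1 member are not reported here, though it stays in all counts and medians. Pathway genes beyond those were named after their values were seen. Promoter windows came from RefSeq (GRCm38.p6). Alternatives were scaling by RLE or by the upper quartile, a missing or stricter filter (10 counts in 6 libraries and a mean log2 CPM of 1), DESeq2, limma-voom with quality weights, a robust edgeR fit, the replicate block, leaving out each library, and a length offset (lowess span 0.3) chosen after seeing the data.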

Additional observations from a re-analysis of the deposited data

Results flagged for a closer look

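Of 78 group values examined (the named members and the sums of each complex, in groups of 6), 10 had a highest or lowest library whose gap to the next took more than 0.625 of the range of its group. Chance alone gives about 1 in 20 for a single value. The 78 values come from the same 12 libraries and are not independent, so their count cannot be weighed against that rate. In AHRKO replicate 4 the highest library stood apart for 8 genes. These were Atp5k with 35 CPM (next 18.4), Cox6a1 with 310 CPM (next 217) and Sdhd with 149 CPM (next 110). Sdhb had 124 CPM there (next 95), Atp5j 98.8 CPM (next 75.9) and Cox5a 59.4 CPM (next 41.3). Ndufb4 had 43.2 CPM (next 31.3) and Ndufs6 40.7 CPM (next 28.5). Of the 7 risen genes among them, each kept its call without that library, and Sdhd was not called with it or without it. In WT, replicate 6 was highest for Cox5a with 38.1 CPM (next 31.3), and replicate 5 had the lowest complex V sum, 2596 CPM (next 2807).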

How the results depend on the processing

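The number of risen members was 24, and leaving out 1 library gave 11 to 29 risen and 0 to 2 fallen. By complex these ranges were 5 to 14 (I), 1 to 2 (II), 1 to 4 (III), 0 to 4 (IV) and 4 to 6 (V), and over all genes 1822 to 2980 risen and 1632 to 2778 fallen. Upper-quartile scaling left 1 risen in complex III. Without a filter 6 rose in complex I, 1 in complex III, and 0 members fell. DESeq2 and limma-voom each gave 2 in complex II, and limma-voom 2 fallen members. The replicate numbers did not pair the libraries (same-number correlations -0.47 to 0.03). With the replicate block, 8 members rose and 0 fell, with 4 in complex I and 0 in each of complexes II, III and IV, and 1114 and 1240 genes rose and fell in all. With the length offset 9 rose and 9 fell, with 4 in complex I, 1 in III, 0 in IV and 3 in V. The block leaves fewer residual degrees of freedom, and leaving out a library leaves fewer samples. The cause of these changes was not tested for any setting. No called member changed sign under any of the 21 alternatives. The mean member sum was 6638 to 6691 CPM in WT and 7599 to 7653 CPM in AHRKO under other scalings. Counts of 112 or fewer over all libraries (Cox6a2, Cox8b) did not pass the filter of the main test. Without a filter both were tested, and 16 members rose, of which 15 were among the original 24. In that setting 3 rose in complex IV, although Cox5a lost its call (edgeR adjusted p = 0.057).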
